A study of Mus musculus with 15 samples.

Results

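The 6 genes described here encode the core subunits of Polycomb repressive complex 2 (PRC2): Ezh2, Ezh1, Eed, Suz12, Rbbp4 and Rbbp7. They were chosen by name and found by matching the Ensembl identifiers of the count table to GENCODE M21, which gave 6 members among 46078 gene identifiers. All 6 passed the low-count filter that left 15152 genes for testing. B16-F10 is a mouse melanoma cell line, and 15 RNA libraries of it were read, with 5 groups of 3. In the compound arm, cells received the vehicle DMSO, 2 µM GSK126 or 2 µM DZNep. In a parallel arm, cells received a scrambled control (scr) or an siRNA knockdown of Ezh2 (siEzh2). No allele, transgene or second agent is named for any group, all groups are the same line, and neither treatment times nor siRNA sequences were known here.

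PRC2 places methyl groups on lysine 27 of histone H3, a mark of repressed chromatin. EZH2 and its paralogue EZH1 are alternative catalytic subunits, EED reads the finished mark and stimulates the enzyme, SUZ12 is the scaffold, and RBBP4 and RBBP7 are closely related histone-binding proteins. The last pair also serve in other chromatin complexes, and in melanoma EZH2 is often high. GSK126 competes with the methyl donor in the EZH2 active site, whereas DZNep blocks S-adenosylhomocysteine hydrolase and so affects methyltransferases broadly. Neither compound is designed against a transcript, and RNA counts report neither protein amount nor histone methylation.

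Library totals lay between 33299524 and 64545747 counts, so that 1 count was worth 0.0154 to 0.0306 CPM (counts scaled to a common library size by the trimmed mean of M values). The 7 melanocyte markers were all detected, while Cd3e, Itgam, Adgre1, Cdh5, Krt5, Krt14 and Thy1 had 0 counts in every library. The melanocyte markers summed to 25300 to 25600 CPM with DMSO, 21400 to 21800 with GSK126 and 22000 to 22400 with DZNep. They summed to 18900 to 20000 with scr and 24100 to 25500 with siEzh2. These sums rest on the most abundant genes, and single markers differed. With DZNep, mean Tyr (107 against 71.1 CPM), Tyrp1 (10517 against 9052) and Mlana (1321 against 1249) lay above DMSO. Dct (4959 against 8773), Pmel (3742 against 4563), Mitf (740 against 792) and Sox10 (825 against 957) lay below it. Tyr also lay above DMSO with scr (87.9 CPM), unlike the sum. The 4 epithelial markers summed to 11.2 to 11.6 CPM with DZNep and to 3.4 to 3.63 CPM with DMSO. With siEzh2 they summed to 4.48 to 4.92 CPM and with scr to 2.31 to 2.96 CPM. Almost all of these sums was Cdh1 alone (mean 11.4 CPM with DZNep, 3.48 with DMSO, 4.64 with siEzh2 and 2.74 with scr). The 5 fibroblast markers summed to 10.2 to 11.3 CPM with siEzh2 and 8.16 to 9.75 CPM with scr. Almost all of this was Pdgfra, which was higher with siEzh2 (mean 5.11 against 2.65 CPM), and Pdgfrb, which was not (5.45 against 6.44). Mitochondrially encoded genes held 5.98% to 8.17% of counts with DZNep, 8.05% to 8.96% with DMSO and 8.51% to 10.2% with GSK126. The part of these shifts in the results for the compounds and the knockdown was not tested. Library names place replicate 1 of GSK126 (number 3) beside the siRNA arm (numbers 4 to 9) and apart from the other compound libraries (numbers 13 to 20). The meaning of those numbers is not stated. The labels do not tie replicates to separate cultures, so the spread behind each p-value may be only technical. In such bulk RNA, fewer cells with a transcript and less of it per cell cannot be told apart.

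In GRCm38, the build of the files, Ezh2 (ENSMUSG00000029687) spans chr6:47530139-47595341 on the minus strand. Ezh1 (ENSMUSG00000006920) spans chr11:101191115-101226463 on the minus strand. Eed (ENSMUSG00000030619) spans chr7:89954654-89980983 on the minus strand. Suz12 (ENSMUSG00000017548) spans chr11:79993106-80034123 on the plus strand. Rbbp4 (ENSMUSG00000057236) spans chr4:129307100-129335370 on the minus strand. Rbbp7 (ENSMUSG00000031353) spans chrX:162760402-162779092 on the plus strand. These are GENCODE M21 gene bounds, and the counts cover exons, with untranslated exon bases included in the lengths used below.

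The promoters of 4 members are shown because their transcripts moved in different ways below: Ezh2 and Suz12 were lower with DZNep, Eed was higher, and Rbbp7 was lower with GSK126. Each is the 250 bases upstream of the RefSeq start in GRCm38.p6, read 5′ to 3′ on the strand of the gene. They lie at chr6:47595031-47595280 (minus) for Ezh2, chr7:89980977-89981226 (minus) for Eed, chr11:79992856-79993105 (plus) for Suz12 and chrX:162760122-162760371 (plus) for Rbbp7. Capitals mark the words that were found, on either strand: the CCAAT box (CCAAT, read ATTGG on the other strand), the GC box (GGGCGG, or CCGCCC), the cell cycle homology region or CHR (TTTGAA, or TTCAAA) and the E2F word TTTCCCGC.
Ezh2: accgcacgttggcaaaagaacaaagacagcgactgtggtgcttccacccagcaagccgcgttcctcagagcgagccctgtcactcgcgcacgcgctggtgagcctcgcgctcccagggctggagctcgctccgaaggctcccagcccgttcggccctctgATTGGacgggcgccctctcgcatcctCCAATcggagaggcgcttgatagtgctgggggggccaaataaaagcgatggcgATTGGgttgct
Eed: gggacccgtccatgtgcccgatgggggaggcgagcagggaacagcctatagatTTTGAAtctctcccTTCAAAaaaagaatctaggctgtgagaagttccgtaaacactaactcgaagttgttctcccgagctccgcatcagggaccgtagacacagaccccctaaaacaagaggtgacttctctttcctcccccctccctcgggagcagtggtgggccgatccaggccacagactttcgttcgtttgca
Suz12: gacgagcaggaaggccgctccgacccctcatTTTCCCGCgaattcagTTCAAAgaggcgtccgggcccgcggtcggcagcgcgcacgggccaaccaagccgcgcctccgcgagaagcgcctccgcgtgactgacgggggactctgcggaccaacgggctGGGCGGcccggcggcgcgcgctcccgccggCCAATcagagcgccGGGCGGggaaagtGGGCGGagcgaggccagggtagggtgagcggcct
Rbbp7: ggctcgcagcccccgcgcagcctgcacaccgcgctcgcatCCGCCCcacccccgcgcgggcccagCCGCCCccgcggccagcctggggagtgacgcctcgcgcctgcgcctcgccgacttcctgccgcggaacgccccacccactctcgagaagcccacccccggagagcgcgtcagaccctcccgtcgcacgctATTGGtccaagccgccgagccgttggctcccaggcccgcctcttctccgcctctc
All 6 members had an entry in the RefSeq promoter table. CCAAT stood in the Ezh2 promoter at -90, -64 and -11 from the start, and in the promoters of Suz12, Rbbp4 and Rbbp7. That is 4 of 6 members, against 33.8% of 32851 promoters of the same length. GGGCGG was present in Suz12, Rbbp4 and Rbbp7, against 32.7% of all promoters. TTTGAA was present in Eed and Suz12, against 16% of all promoters, and the bases of these words did not overlap another word searched.

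An E2F word was found in Suz12 alone among the 6 (TTTCCCGC, 0.895% of all promoters). The other E2F words searched were TTTCGCGC, TTTGGCGC and TTTGCCGC, and any of the 4 was present in 1.86% of promoters. No member held TTCGAA, the NRF1 word, CCGGAAG (ETS) or AAGATGGC (YY1), and the Ezh1 window held none of the words. Bases G and C made up 63.6% of the Ezh2 window, 55.2% of Ezh1, 54.4% of Eed, 73.6% of Suz12, 67.6% of Rbbp4 and 76.4% of Rbbp7, against a median of 52.4%. These matches describe letters in a fixed window, and GENCODE places the outer end of Ezh2 upstream of the RefSeq start used here.

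Per kilobase of merged exons, the DMSO level was highest for Suz12, at 64.1 ± 4.01 CPM per kb (SD, n = 3). On the same scale, the level of Rbbp7 was 54.1 ± 3.37, of Ezh2 31.0 ± 0.398, of Rbbp4 21.6 ± 1.55, of Eed 8.03 ± 0.219 and of Ezh1 5.64 ± 0.286 CPM per kb. Suz12 and Rbbp7 thus stood at percentiles 95.6 and 94.5 of 15086 genes by this level, and Eed and Ezh1 at 62.5 and 53.7. The place of Ezh2 depended on the length used. Per kilobase of its longest annotated transcript its DMSO level was 74.2 ± 0.953 CPM per kb, beside 72.5 ± 4.53 for Suz12 and 70.1 ± 4.37 for Rbbp7, and the spreads of these 3 levels overlap. Rbbp4 (40.5 ± 2.91), Eed (14.9 ± 0.406) and Ezh1 (9.98 ± 0.505 CPM per kb) kept their order.

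**Figure D1:**
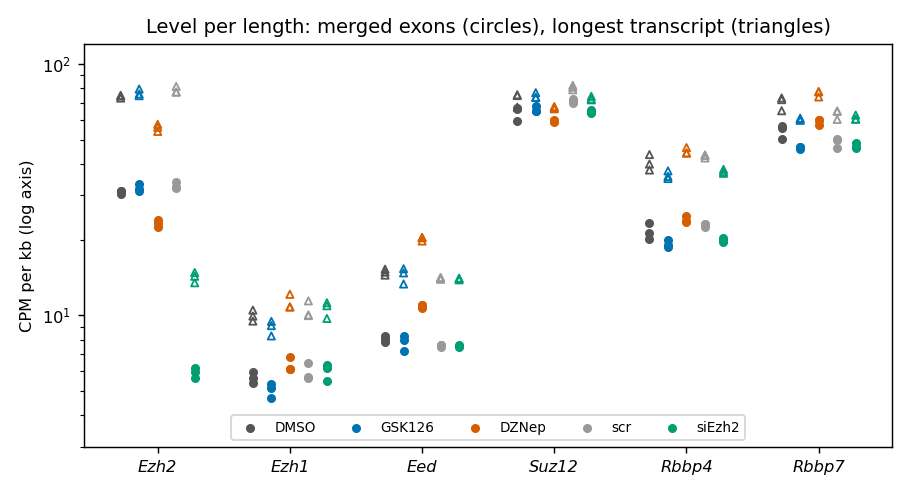
Level of each subunit in CPM per kb (vertical log axis) in each of 15 libraries, coloured by group, by merged exon length (circles) and by longest transcript (triangles). Ezh2 with siEzh2 falls to the level of Ezh1 on the circles, and the choice of length shifts Ezh2 (31.0 or 74.2 CPM per kb in DMSO) more than the other subunits.

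The siRNA arm checks its own label first. Ezh2 was read at 215, 227 and 215 CPM in the scr libraries and at 37.6, 39.9 and 41.3 CPM in the siEzh2 libraries, from 1229 to 1807 counts. Every siEzh2 library was far under every scr library. The remaining Ezh2 level was 18.1% of control, a log2 fold change of -2.47 ± 0.05 (SE; adjusted p = 1.22e-17, edgeR). It had the smallest p of 15152 genes, so the transcript named by the label was the one most clearly reduced.

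With the compounds, Ezh2 behaved differently. It was at 204, 209 and 208 CPM with DMSO, 208, 212 and 221 CPM with GSK126, and 160, 156 and 150 CPM with DZNep. GSK126 and DMSO libraries overlapped, and the log2 fold change was 0.05 ± 0.05 (adjusted p = 0.569), with a 95% interval from -0.05 to 0.15. All DZNep libraries were below all DMSO libraries, and Ezh2 fell by 0.41 on the log2 scale (SE 0.05, adjusted p = 3.67e-07), to 75.2% of DMSO. The order of groups from the lowest was siEzh2, DZNep, DMSO, GSK126 and scr, with overlap between neighbours only among the last 3.

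**Figure D2:**
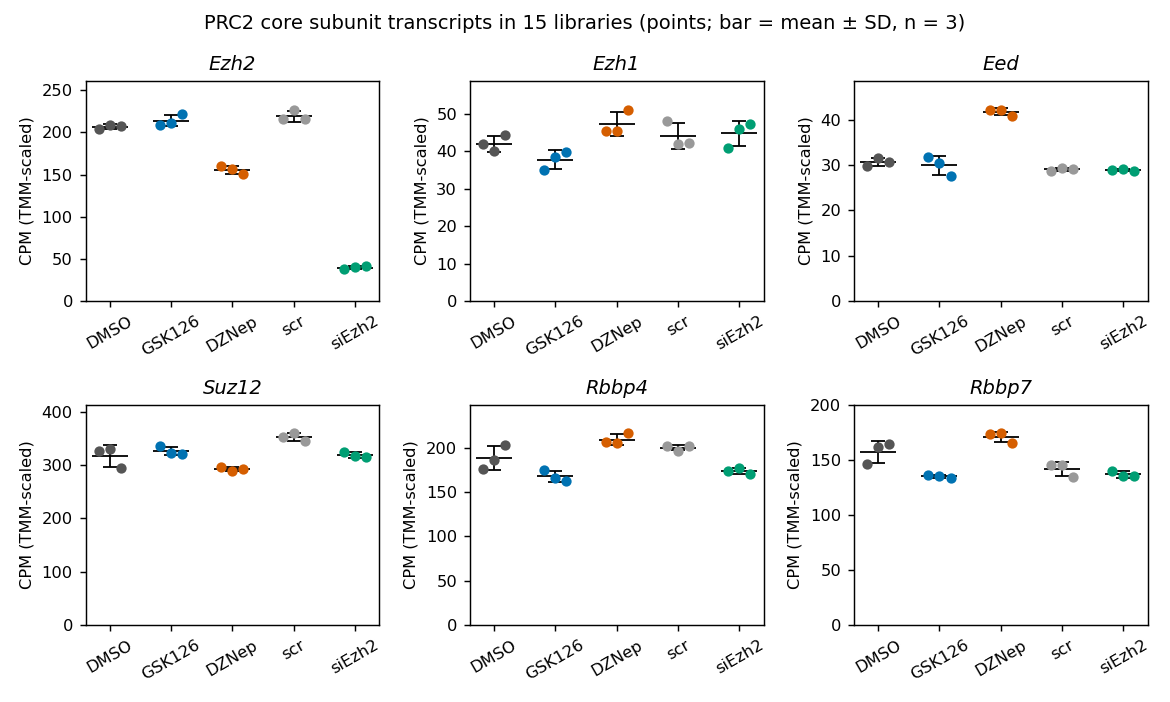
CPM of each subunit (vertical axes from 0) in every library, with points for libraries and bars for mean ± SD of 3. Ezh2 with siEzh2 (37.6 to 41.3 CPM) and Eed with DZNep (40.8 to 42.2 CPM) stand clear of all other groups.

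Ezh1, the other catalytic subunit, was at 48.0, 42.0 and 42.3 CPM with scr and 40.9, 46.0 and 47.2 CPM with siEzh2. The groups overlapped, and the log2 fold change was 0.02 ± 0.07 (adjusted p = 0.873) with a 95% interval from -0.13 to 0.17, so a rise in Ezh1 RNA of more than 0.17 on the log2 scale lay outside the interval of this comparison. With DMSO it was at 41.8, 39.9 and 44.2 CPM, with GSK126 at 34.9, 38.3 and 39.8 CPM, and with DZNep at 45.4, 45.5 and 51.0 CPM. All GSK126 libraries were below all DMSO libraries, but the difference of -0.16 ± 0.07 was not called (adjusted p = 0.163). All DZNep libraries were above all DMSO libraries, and Ezh1 rose by 0.17 ± 0.07 (adjusted p = 0.0421). That call was kept in 7 of 12 alternative settings and lost, for example, without DZNep replicate 3 (0.11). From the lowest, the order of groups was GSK126, DMSO, scr, siEzh2 and DZNep, and only GSK126 and DMSO did not overlap as neighbours.

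Eed, the subunit that binds trimethylated lysine 27, was at 29.9, 31.6 and 30.7 CPM with DMSO, 31.7, 30.5 and 27.5 CPM with GSK126, and 42.2, 42.1 and 40.8 CPM with DZNep. The DZNep libraries were above all others, and the GSK126 libraries overlapped those with DMSO, while all scr and siEzh2 libraries were below all DMSO libraries. Eed rose by 0.44 ± 0.05 with DZNep (adjusted p = 6.3e-07), to 136% of DMSO, and this call was kept in 12 of 12 alternative settings. GSK126 gave -0.04 ± 0.05 (adjusted p = 0.698). In the siRNA arm Eed was at 28.8, 29.3 and 29.1 CPM with scr and 28.9, 29.1 and 28.6 CPM with siEzh2. Those groups overlapped, with a log2 fold change of -0.01 ± 0.06 and a 95% interval from -0.12 to 0.11 (adjusted p = 0.929). The order from the lowest was siEzh2, scr, GSK126, DMSO and DZNep, where only the last step had no overlap.

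Suz12, the scaffold that joins the catalytic subunit to RBBP4 or RBBP7, was at 327, 330 and 294 CPM with DMSO, 336, 322 and 322 CPM with GSK126, and 296, 290 and 293 CPM with DZNep. The third DMSO library lay among the DZNep libraries, and the other DMSO libraries lay above them. Suz12 was lower with DZNep by 0.11 on the log2 scale (-0.11 ± 0.05, adjusted p = 0.0499), a call kept in 4 of 12 alternative settings. GSK126 gave 0.04 ± 0.05 (adjusted p = 0.62). Suz12 was at 353, 359 and 345 CPM with scr and 325, 317 and 315 CPM with siEzh2, without overlap. The difference was -0.14 ± 0.05 (adjusted p = 0.0358), and this call was also kept in 4 of 12 alternative settings, being lost whenever any 1 of the 6 libraries was left out. From the lowest, the order was DZNep, DMSO, siEzh2, GSK126 and scr, with overlap at every step except the last.

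Rbbp4, a histone chaperone subunit, was at 176, 186 and 203 CPM with DMSO, 175, 166 and 163 CPM with GSK126, and 207, 206 and 217 CPM with DZNep. All GSK126 libraries were below, and all DZNep libraries above, every DMSO library. Rbbp4 fell by 0.17 with GSK126 (SE 0.05, adjusted p = 0.0418), a call kept in 4 of 12 alternative settings and lost without DMSO replicate 3 (-0.11). It rose by 0.15 ± 0.05 with DZNep (adjusted p = 0.016), a call kept in 7 of 12. Rbbp4 was at 202, 197 and 202 CPM with scr and 174, 177 and 171 CPM with siEzh2, all lower. The fall of 0.20 (SE 0.05, adjusted p = 0.00661) was kept in 12 of 12 alternative settings. Groups ran from GSK126 through siEzh2, DMSO and scr to DZNep, and only scr and DZNep had no overlap as neighbours.

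Rbbp7, the X-linked relative of Rbbp4, was at 146, 162 and 164 CPM with DMSO, 136, 135 and 134 CPM with GSK126, and 174, 174 and 166 CPM with DZNep. Each GSK126 library was under, and each DZNep library over, all DMSO libraries. Rbbp7 fell by 0.22 with GSK126 (SE 0.05, adjusted p = 0.00709), to 85.9% of DMSO, and this was kept in 12 of 12 alternative settings. Its rise of 0.12 ± 0.05 with DZNep (adjusted p = 0.0456) was kept in 5 of 12 and came to 0.07 without DMSO replicate 1. Rbbp7 was at 146, 145 and 135 CPM with scr and 140, 135 and 135 CPM with siEzh2. Those groups overlapped (-0.05 ± 0.05, adjusted p = 0.502, 95% interval -0.16 to 0.06). From the lowest, the order was GSK126, siEzh2, scr, DMSO and DZNep, without overlap at the last pair of steps.

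In counts of members, GSK126 against DMSO called 2 of 6, both lower, where 12.7% of all genes were called (7.15% higher and 5.54% lower). DZNep against DMSO called 6 of 6, with 4 higher and 2 lower, where 62.3% of all genes were called (31.2% higher and 31% lower). The knockdown against scr called 3 of 6, all lower and with Ezh2 itself among them, where 26.1% of genes were called (13.2% higher and 12.9% lower). Nothing particular to the complex is read from these counts, since changes were common among all genes. GSK126 and DZNep were compared with the same DMSO libraries, so their values share those controls. The counts of calls without single libraries ranged from 1 to 2 for GSK126, where 7.7% to 16.2% of all genes were called. They ranged from 2 to 6 for DZNep, where 56.9% to 61.5% of all genes were called. The DZNep count was 2 without DMSO replicate 1 (57.9% of all genes), 3 without DMSO replicate 2 (57.6%) and 3 without DZNep replicate 3 (57.5%). Without DMSO replicate 2 or 3, or GSK126 replicate 2 or 3, the GSK126 count was 1, and it was 2 without GSK126 replicate 1, the library numbered apart. The knockdown count was 2 without any 1 library, where 20.4% to 21.7% of all genes were called.

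**Figure D3:**
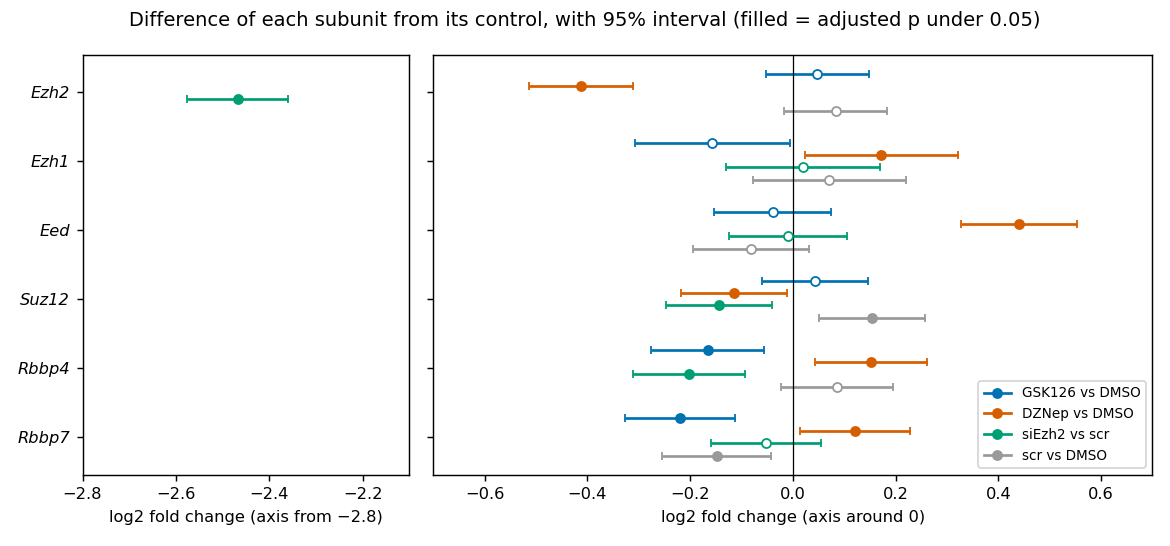
Log2 fold change of each subunit against its control (horizontal axis, with a separate panel for the value near -2.47) and its 95% interval; filled points passed an adjusted p of 0.05. Ezh2 with siEzh2 lies apart at -2.47, and Ezh2 (-0.41) and Eed (0.44) with DZNep are the next largest.

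The controls of the arms also differed. Scr against DMSO called 2 of 6 members, where 25.9% of genes were called (12.2% higher and 13.6% lower): Suz12 was higher (0.15 ± 0.05, adjusted p = 0.0264) and Rbbp7 lower (-0.15 ± 0.05, adjusted p = 0.0376). Without scr replicate 2 the count was 0, and it was 1 without scr replicate 1 or 3 or without DMSO replicate 2 or 3. Of all genes, 19.8% to 25.1% were called in those settings. Those shifts are as large as several treatment differences above, so the effect of each treatment was tested against the control of its own arm. The orders of groups given for each member, and the correlations over 15 libraries below, cross the arms and include these shifts.

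The differences between treatments were tested directly. DZNep against GSK126, at the same 2 µM dose of 2 unlike compounds, called 6 of 6 members, where 64.6% of genes were called (32.9% higher and 31.7% lower). Ezh2 (-0.46 ± 0.05, adjusted p = 6.97e-08) and Suz12 (-0.16 ± 0.05, adjusted p = 0.00864) were lower with DZNep. Eed (0.48 ± 0.05), Rbbp7 (0.34 ± 0.05), Ezh1 (0.33 ± 0.07) and Rbbp4 (0.32 ± 0.05) were higher, with adjusted p between 1.91e-07 and 0.000495, and all 6 calls were kept in 12 of 12 alternative settings. The effect of siEzh2 minus that of GSK126 called 1 of 6, where 20.7% of genes were called (10.1% higher and 10.5% lower): Ezh2, at -2.52 ± 0.07 (adjusted p = 2.98e-15). Suz12 in that test had -0.19 ± 0.07 (adjusted p = 0.0628), and it passed in a few alternative settings. The count was thus 3 without DMSO replicate 1 (with Rbbp7, and 21.5% of all genes called) and 2 without DMSO replicate 2 (18.8%).

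The effect of DZNep minus that of siEzh2 called 3 of 6, where 51.1% of genes were called (25.3% higher and 25.8% lower). Ezh2 (2.06 ± 0.07, adjusted p = 2.67e-14), Eed (0.45 ± 0.08, adjusted p = 6.73e-05) and Rbbp4 (0.35 ± 0.07, adjusted p = 0.000494) had the more positive difference with DZNep. Rbbp7 was not called (0.17 ± 0.07, adjusted p = 0.0523). With library totals alone it was called, for a count of 4 (50% of all genes called). The count was also 4 without DMSO replicate 3 (52.6%) or scr replicate 3 (46.9%). For Suz12 the difference between these effects was 0.03 ± 0.07, with a 95% interval from -0.12 to 0.18 (adjusted p = 0.749).

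Ratios taken inside a library do not depend on how libraries are scaled. By merged exons, the ratio of Ezh1 to Ezh2 per kb was 0.182 ± 0.00961 with DMSO, 0.158 ± 0.00666 with GSK126 and 0.274 ± 0.0274 with DZNep (SD, n = 3). It was 0.181 ± 0.0175 with scr and 1.01 ± 0.0306 with siEzh2, where the library values were 0.977 to 1.03. On this scale Ezh1 transcripts equalled Ezh2 transcripts after knockdown, and by longest transcript the ratio was 0.747 ± 0.0229. The log2 ratio was 0.58 higher with DZNep, 2.49 higher with siEzh2 and 0.20 lower with GSK126 (-0.20), each without overlap. With 3 libraries against 3, the exact two-sided permutation test gave 0.10 for each, the smallest p this design allows, and 0.154 after Benjamini-Hochberg adjustment over 20 tests.

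The ratio of Ezh2 to Suz12 per kb was 0.484 ± 0.0337 with DMSO, 0.485 ± 0.0255 with GSK126, 0.393 ± 0.0116 with DZNep, 0.46 ± 0.00819 with scr and 0.0919 ± 0.00584 with siEzh2. The DMSO and GSK126 values overlapped, and DZNep and siEzh2 did not overlap their controls (exact permutation p = 0.10). The ratio of Eed to Suz12 was 0.126 ± 0.00862 with DMSO, 0.118 ± 0.00635 with GSK126 and 0.184 ± 0.004 with DZNep. It was 0.106 ± 0.00231 with scr and 0.117 ± 0.00153 with siEzh2.

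The ratio of Rbbp7 to Rbbp4 per kb ran from 2.13 ± 0.115 with scr to 2.51 ± 0.0917 with DMSO, with 2.41 ± 0.0643 for GSK126, 2.46 ± 0.136 for DZNep and 2.36 ± 0.0702 for siEzh2. Both compounds overlapped DMSO (log2 difference -0.05, exact permutation p = 0.30, and -0.03, p = 0.70). The ratio was 0.15 higher with siEzh2 than with scr and 0.24 lower with scr than with DMSO, each without overlap (exact permutation p = 0.10). A steady ratio does not show whether either gene moved. In the fit, both were called lower with GSK126 and higher with DZNep. The Rbbp4 and Rbbp7 calls were kept in 4 and 12 of 12 alternative settings for GSK126, and in 7 and 5 for DZNep.

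**Figure D4:**
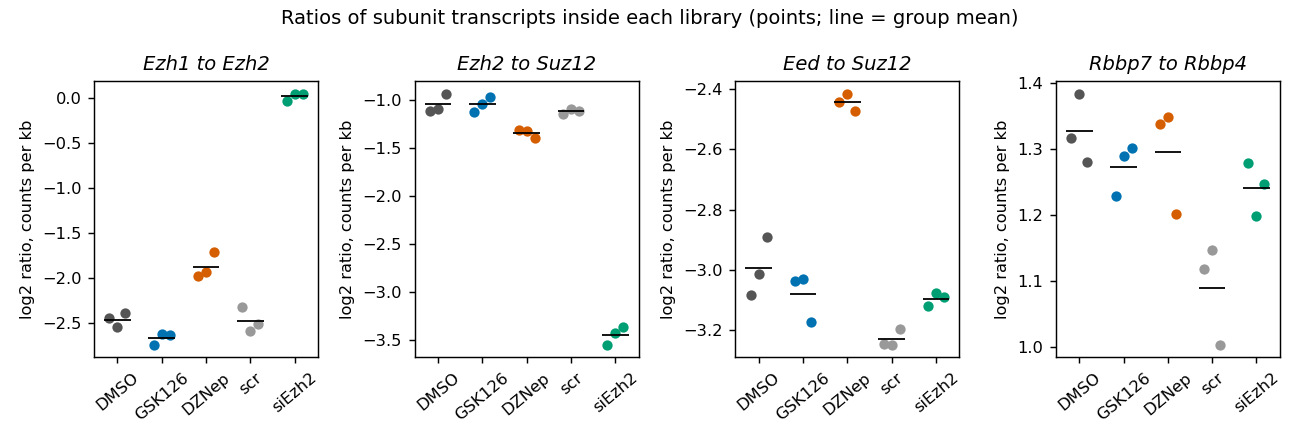
Log2 ratio of counts per kb of merged exons (vertical axes, not from 0) for 4 pairs of subunits in each library, with lines at group means. Ezh1 to Ezh2 sits near 0 with siEzh2 (mean 0.02) and between -2.66 and -1.87 in the other group means.

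Reads shared with other genes were limited but not even across members. Ezh2 shares 174 exon bases with the long non-coding Gm26625 on the other strand, and 1.11% of the 50-base words of Ezh2 exons occur in another gene. Ezh1 had the fewest such words, at 0.093%. The shares were 5.82% for Eed, 2.6% for Suz12, 17.2% for Rbbp4 and 11.2% for Rbbp7. The Rbbp4 exons overlap Sync and Gm26722 on the other strand, and Rbbp7 overlaps Txlng and has words in common with the pseudogene Gm6382. The level of Txlng was 8.23% of the Rbbp7 counts, of Gm6382 3.74% and of Sync 1.42% of the Rbbp4 counts. Neither the 2 catalytic paralogues nor the Rbbp4 and Rbbp7 pair had words in common. Whether counting used strand is not given, so reads in such overlaps cannot be told apart. Gm26625, at 1 to 19 counts per library, fell with siEzh2 by 2.73 on the log2 scale (adjusted p = 0.00103), in the same libraries as Ezh2. Sync fell by 2.21 with DZNep (adjusted p = 2.69e-09, edgeR) while Rbbp4 rose, and rose by 0.51 with siEzh2 (adjusted p = 0.0174) while Rbbp4 fell. Txlng, in contrast, rose with DZNep (0.20, adjusted p = 0.0162), beside 0.12 for Rbbp7. It fell with siEzh2 (-0.32, adjusted p = 0.00167), beside -0.05 for Rbbp7, and was not called with GSK126 (-0.03), where Rbbp7 fell. The part of Txlng reads in the Rbbp7 counts was not tested.

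Genes with the most similar pattern were sought among 8640 genes with a mean of at least 10 CPM, by Pearson's r of log2 CPM over 15 libraries. The libraries share their groups, so r describes mostly differences between groups. For Ezh2 they were Pi4k2b (r = 0.982), Mia3 (0.975) and Ints4 (0.965), and Pi4k2b was at 102 ± 1.57 CPM with scr and 49.8 ± 2.01 CPM with siEzh2. Over the 12 libraries without siEzh2 they were Rars2 (0.993), Olfm1 (0.992) and Csf2ra (0.992). Eed was most like Paqr8 (0.987), Pgd (0.984) and Ska3 (0.983), and Paqr8 was at 9.43 ± 0.467 CPM with DMSO and 24.7 ± 0.996 CPM with DZNep. Paqr8 was also under 10 CPM with GSK126 (8.97), scr (8.79) and siEzh2 (8.30). It thus passed the filter only through DZNep, where Eed was high, so its place among the matches partly follows from the filter. Rbbp4 was most like Mxd3 (0.983), Rnaseh2a (0.971) and Nsun5 (0.962), and Rbbp7 like Zfp35 (0.957), Atp1b3 (0.941) and Med17 (0.941). For Suz12 they were Itga4 (0.933), Efcab7 (0.93) and Parp2 (0.93), and for Ezh1 Ccdc157 (0.922), Wdr90 (0.92) and Coro7 (0.91). Among the members themselves, r over the 15 libraries was 0.828 for Eed with Rbbp7, 0.739 for Rbbp4 with Rbbp7 and -0.699 for Eed with Suz12. With group means removed these were 0.372, 0.412 and 0.259.

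Accessory subunits direct PRC2 to its targets, and 8 of the 9 listed passed the filter. GSK126 called 1 of 8, where 12.7% of all genes were called: Aebp2 (-0.14 ± 0.04, adjusted p = 0.0425), a call that was lost in 11 of 12 alternative settings, among them each one that left out a library. DZNep called 5 of 8, where 62.3% of all genes were called. Phf19 (-0.51 ± 0.07), Lcorl (-0.47 ± 0.07), Epop (-0.46 ± 0.13) and Jarid2 (-0.26 ± 0.05) fell, and Phf1 rose (0.41 ± 0.09), with adjusted p between 2.44e-06 and 0.00369. The knockdown called 4 of 8, where 26.1% of all genes were called: Epop (-0.62 ± 0.13), Phf19 (-0.56 ± 0.07) and Mtf2 (-0.39 ± 0.06) fell, and Jarid2 rose (0.20 ± 0.05), with adjusted p between 2.26e-06 and 0.00584. Jarid2, a cofactor that helps recruit PRC2, thus differed from the control of its arm in opposite directions with DZNep and the knockdown. The controls differed here too: scr against DMSO called 3 of 8 higher and 0 lower, where 25.9% of all genes were called. Mean CPM with DMSO, scr and siEzh2 was 106, 96.6 and 111 for Jarid2 and 13.6, 21.3 and 14.3 for Phf19. It was 39.5, 46.8 and 35.6 for Mtf2 and 8.85, 7.42 and 4.84 for Epop. The part of this shift in the knockdown values was not tested.

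Values for the accessory genes that were not called follow. With GSK126, Phf19 (-0.20), Epop (-0.35), Phf1 (-0.13), Lcor (0.16), Mtf2 (0.04), Lcorl (0.04) and Jarid2 (0.01) had adjusted p between 0.0601 and 0.92, and Epop was called without DMSO replicate 1 and when the count filter was dropped. With DZNep these were Mtf2 (0.09), Aebp2 (-0.06) and Lcor (0.12), and with siEzh2 Phf1 (-0.19), Lcor (-0.14), Lcorl (-0.07) and Aebp2 (-0.04). The median of the 8 was -0.06 with GSK126, -0.16 with DZNep and -0.17 with siEzh2, against -0.01, 0.00 and -0.01 over all genes. For scr against DMSO it was 0.17, against 0.00 over all genes.

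The enzymes that erase the mark were Kdm6a and Kdm6b. Of all genes, 62.3% were called with DZNep (31% lower), 12.7% with GSK126 and 26.1% with siEzh2. With DZNep both fell, Kdm6b by 0.95 (SE 0.13, adjusted p = 1.48e-05) and Kdm6a by 0.31 (SE 0.06, adjusted p = 0.000276), and neither call was lost in an alternative setting. Neither was called with GSK126 (Kdm6a -0.09, Kdm6b 0.17) or siEzh2 (Kdm6a 0.04, Kdm6b -0.24) in edgeR or DESeq2, and 0 of 2 had an unadjusted p under 0.05 in either. Kdm6b was called with GSK126 without DMSO replicate 1, and with siEzh2 when the count filter was dropped or only the compared groups were fitted.

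RBBP4 and RBBP7 also belong to the NuRD deacetylase complex, of which 13 genes were tested. Over all genes, 12.7% were called with GSK126, 62.3% with DZNep and 26.1% with siEzh2. GSK126 called 0 in edgeR and 1 in DESeq2, with 5 at an unadjusted p under 0.05. Such p-values were common over all genes with GSK126: Ezh1, at an unadjusted p of 0.0417 (edgeR), ranked 3875 of 15152. Without DMSO replicate 1, 3 were called, where 16.2% of all genes were called. DZNep called 3 higher and 4 lower, led by Chd5 (-1.53 ± 0.12), Mta1 (-0.76 ± 0.06) and Mta3 (-0.51 ± 0.05), and siEzh2 called 1 higher and 5 lower, led by the remodeller Chd3 (0.34 ± 0.04), Chd5 (-0.43 ± 0.10) and Mta1 (-0.25 ± 0.06). Without scr replicate 3 the knockdown called 3, where 21.3% of all genes were called. In the SIN3 deacetylase complex 10 genes were tested. DZNep, with its 62.3% of all genes called, called 5 higher and 3 lower, among them Sap18 (0.68 ± 0.07), Sin3b (0.69 ± 0.07) and Arid4a (-0.46 ± 0.06). GSK126, with 12.7% of all genes called, called Sin3a alone (0.24 ± 0.07, adjusted p = 0.0263), and this call was lost without DMSO replicate 3 or GSK126 replicate 2 or 3. The knockdown called 0 in edgeR and 0 in DESeq2, with 0 at an unadjusted p under 0.05.

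Of 9 tested partners in CAF-1, HAT1, NURF and MuvB, DZNep called 3 higher and 1 lower, where 62.3% of all genes were called. The knockdown called 0 higher and 5 lower, where 26.1% were called. In DESeq2 it called 4, where 25.8% were called, and 1 of the 5 calls was also lost without any 1 scr library. Mybl2, which works with MuvB in cell division, rose by 0.68 ± 0.07 with DZNep and fell by 0.64 with siEzh2 (SE 0.07). Chaf1a, the large subunit of the chaperone CAF-1, rose by 0.65 ± 0.05 and fell by 0.26 (SE 0.05), while Lin54 rose with DZNep (0.47 ± 0.07) and Lin9 fell with siEzh2 (-0.30 ± 0.06). Lin37 was the 1 gene called with GSK126, where 12.7% of all genes were called, and it was lower (-0.28 ± 0.09, adjusted p = 0.0487), and its call was lost without DMSO replicate 2 or 3 or GSK126 replicate 1 or 2.

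E2F factors are known regulators of Ezh2 and Eed in dividing cells. Of 11 E2F and pocket protein genes tested, GSK126 called 2 higher and 1 lower, where 12.7% of all genes were called: Rb1 (0.43 ± 0.06, adjusted p = 4.2e-05), E2f7 (0.21 ± 0.07, adjusted p = 0.0368) and Rbl2 (-0.21 ± 0.06, adjusted p = 0.0188). The count fell to 1 without GSK126 replicate 1 (7.99% of all genes called) and to 1 without GSK126 replicate 3 (7.82%). DZNep called 6 higher and 2 lower, where 62.3% of all genes were called, with E2f8 at 0.98 ± 0.08, E2f7 at 0.64 ± 0.06 and Rbl2 at 0.42 ± 0.06. The knockdown called 2 higher and 3 lower, where 26.1% of all genes were called, with E2f2 at -0.41 ± 0.08, Rbl1 at -0.25 ± 0.05 and E2f5 at 0.29 ± 0.07. Without siEzh2 replicate 3 it called 3, where 21.2% of all genes were called.

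Among 15 genes of S phase that E2F factors control, DZNep called 12 higher and 0 lower, with a median log2 difference of 0.31 against 0.00 over all genes, where 31.2% of all genes were called higher. Rrm2 (0.74 ± 0.05), Cdc6 (0.68 ± 0.05) and Ccne1 (0.75 ± 0.06) had the smallest p. The knockdown called 0 higher and 7 lower, with a median of -0.16 against -0.01, where 12.9% of all genes were called lower, led by the helicase genes Mcm5 (-0.37 ± 0.05), Mcm2 (-0.30 ± 0.05) and Mcm3 (-0.31 ± 0.05). GSK126 called 0 of 15 in edgeR, where 12.7% of all genes were called, and 1 in DESeq2, where 13.1% were called. In edgeR, 1 had an unadjusted p under 0.05. Without DMSO replicate 1, 2 were called, where 16.2% of all genes were called. With DZNep, the members called higher in the same libraries were Ezh1 (0.17), Eed (0.44), Rbbp4 (0.15) and Rbbp7 (0.12), and Ezh2 (-0.41) and Suz12 (-0.11) were called lower. With siEzh2, Ezh2 (-2.47), Suz12 (-0.14) and Rbbp4 (-0.20) were called lower, while Ezh1 (0.02), Eed (-0.01) and Rbbp7 (-0.05) were not called. Whether E2F factors had a part in these changes was not tested.

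**Figure D5:**
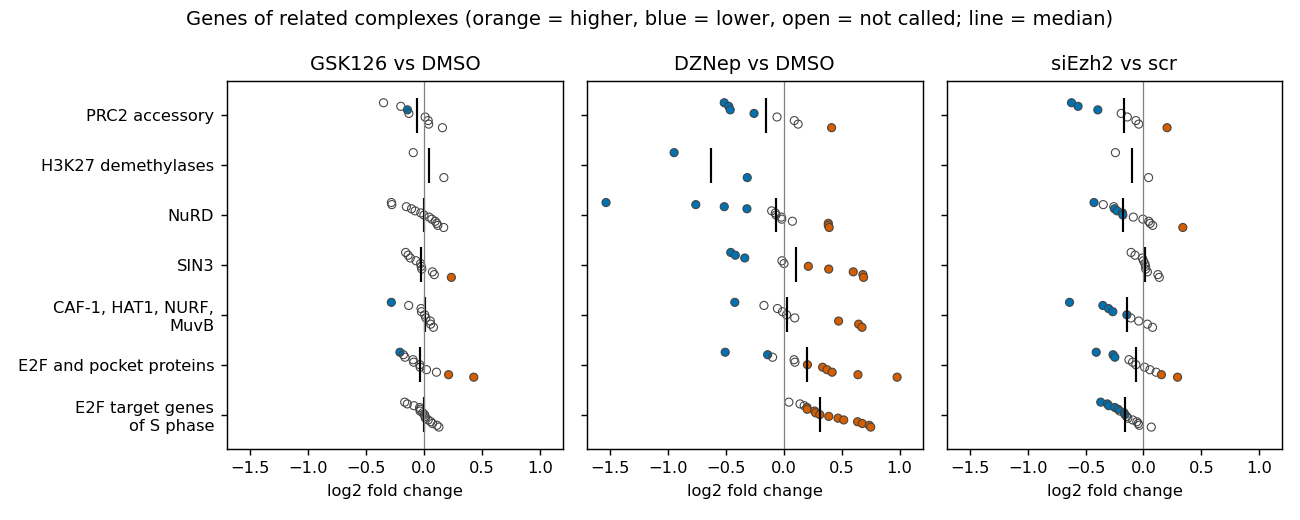
Log2 fold change (horizontal axes) of the genes of related complexes in 3 comparisons; filled points passed an adjusted p of 0.05, orange for higher and blue for lower, and vertical bars are list medians. The S-phase targets of E2F lie to the right with DZNep (median 0.31) and to the left with siEzh2 (median -0.16).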

How the data were processed

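RNA of 15 B16-F10 libraries was measured as whole-number read counts per gene, which the authors deposited without normalization. The submitters' processing notes name STAR, featureCounts and the build GRCm38. For these tools, version, gene annotation and strandedness were not given in the sources used here. Columns were matched to libraries by name. GENCODE M21 gave symbols and lengths to 45143 of 46078 identifiers, and the other 935 held 0.0588% of counts.

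The test was the edgeR 4.0.16 quasi-likelihood test (R 4.3.3) with TMM scaling, robust estimation and the low-count filter, in 1 fit of 15 libraries with a term per group. Adjusted p-values are Benjamini-Hochberg values over 15152 genes, and a call is an adjusted p under 0.05. The common dispersion of 0.00409 is a coefficient of variation of 6.4%. Replicates differed by more than sampling noise (chi-square per degree of freedom 5.96 to 38.8), so all were counted. Alternatives were RLE size factors, library totals, no filter, DESeq2 1.42.0, the compared groups alone, a block by replicate number and leaving out each library.

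All members were named. From each list the text names the 3 called genes with the smallest p per main comparison, every accessory subunit and demethylase, and the 3 genes most like each member. Gm26625, Sync, Txlng and Gm6382 were added for their overlaps. The members and lists were chosen with earlier results of these data known. Promoters are from RefSeq (GRCm38.p6).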

Additional observations from a re-analysis of the deposited data

How the results depend on the processing

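Ezh2 kept its direction and its side of the threshold in every comparison and alternative run, and no called member changed sign. Some differences that were not called did, in members and in genes of the other lists: for example, Eed with GSK126 ranged from -0.08 to 0.02 and Suz12 with GSK126 from -0.01 to 0.07. The 6 calls of DZNep against GSK126 were kept in all 12 alternatives, and the log2 differences of the 4 ratios between groups moved by less than the replicate spread when a library was left out or the pairing used. The length changes the ratios themselves and not those differences. The ratio of Rbbp7 to Rbbp4 for DZNep against DMSO ranged from -0.06 to 0.02 on the log2 scale without single libraries, and that of Ezh1 to Ezh2 for scr against DMSO from -0.09 to 0.05. With GSK126 the number of members called was 1 with library totals alone (11.4% of all genes called), 1 with no count filter (9.43%) and 1 with the compared groups only (7.8%). It was 1 to 2 without single libraries (7.7% to 16.2%). With DZNep it was 3 with no count filter (38.7% of all genes called), 2 with the compared groups only (57.8%) and 2 to 6 without single libraries (56.9% to 61.5%). For scr against DMSO it was 1 with library totals alone (25.3% of all genes called), 0 with no count filter (15.9%) and 0 with the compared groups only (19.9%). It was 0 to 2 without single libraries (19.8% to 25.1%). For the siEzh2 effect minus the GSK126 effect it was 2 with library totals alone (20.1% of all genes called) and 2 with DESeq2 (20.7%). It was 1 to 3 without single libraries (16.7% to 21.5%). The cause was not tested. Replicate numbers were not treated as pairs: same-numbered libraries had deviations correlated at -0.176 to 0.156 and in no comparison was each library most like its own number. With the replicate block, the members called were 1 for GSK126 (12.8% of all genes called), 4 for DZNep (62.4%) and 3 for siEzh2 against scr (26.2%). Standard errors of 0.05 to 0.07 on the log2 scale for members against their control, from 3 libraries a group, limit what could be detected.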
